A study of Mus musculus with 18 samples.

Results

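Hematopoietic stem cells (HSCs) with and without Ptbp1 were compared by total RNA sequencing in 6 libraries, 3 from Ptbp1 KO mice and 3 from Ptbp1 fl/fl mice (WT below), out of 18 libraries in the series. The members were taken by their labels alone. All mice were C57BL/6, the cells came from bone marrow, and the HSC gate held lineage-negative cells positive for Sca-1, c-kit and CD150 and negative for CD48. The other 12 libraries, also 3 WT and 3 KO each, are preMegE cells (bipotent precursors of platelet-forming and red cells, lineage-negative and Sca-1-, c-kit+, CD41-, FcgRII/III- with CD150+ and CD105- staining) and preCFU-E cells (the same gate but CD105+, a stage committed to red cells), and they enter here only as comparison values. Treatment, age, the Cre driver and the deleted exons were not stated in the sources used here, and the WT mice carry the floxed allele. The libraries, called biological replicates in the series' design text, are written WT 1 to WT 3 and KO 1 to KO 3.

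PTBP1 is an RNA-binding protein that binds pyrimidine-rich stretches of pre-mRNA and mostly keeps nearby alternative exons out of the mature message. It holds its paralog Ptbp2 low by promoting the skipping of an exon whose loss shifts the reading frame, and it acts in the same way on its own message. HSCs are the rare, mostly resting cells of the marrow that renew themselves and give rise to all blood lineages.

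The exons on which the splicing results turn are shown first, from the GENCODE M21 transcripts of GRCm38, written 5′ to 3′ on the transcript strand, with the exon in capitals and 15 bases of the neighbouring exons on each side in lower case. All of them lie in coding sequence. The Tpm1 pair is shown because its 2 exons replace each other and had opposite inclusion in the KO. Tpm1 encodes an actin-binding tropomyosin, and the 2 exons, at chr9:67032466-67032541 and chr9:67031951-67032026 on the minus strand, are 76 bases each with 43 identical positions (56.6%).
Tpm1 upstream exon: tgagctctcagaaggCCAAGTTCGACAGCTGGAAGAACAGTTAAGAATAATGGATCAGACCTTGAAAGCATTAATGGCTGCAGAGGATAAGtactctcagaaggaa
Tpm1 downstream exon: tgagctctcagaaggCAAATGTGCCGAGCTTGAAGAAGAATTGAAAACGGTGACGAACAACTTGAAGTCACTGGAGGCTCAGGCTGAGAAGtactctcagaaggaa
The Pkm pair, at chr9:59675029-59675195 and chr9:59675568-59675734 on the plus strand, gives the PKM1 (upstream exon) and PKM2 (downstream exon) forms of pyruvate kinase, and 103 of 167 positions (61.7%) are identical.
Pkm upstream exon: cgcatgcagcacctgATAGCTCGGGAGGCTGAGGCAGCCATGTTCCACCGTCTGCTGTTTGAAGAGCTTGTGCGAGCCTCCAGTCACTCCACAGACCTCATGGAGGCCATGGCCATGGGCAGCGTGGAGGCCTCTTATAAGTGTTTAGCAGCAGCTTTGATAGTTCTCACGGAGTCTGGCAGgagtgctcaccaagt
Pkm downstream exon: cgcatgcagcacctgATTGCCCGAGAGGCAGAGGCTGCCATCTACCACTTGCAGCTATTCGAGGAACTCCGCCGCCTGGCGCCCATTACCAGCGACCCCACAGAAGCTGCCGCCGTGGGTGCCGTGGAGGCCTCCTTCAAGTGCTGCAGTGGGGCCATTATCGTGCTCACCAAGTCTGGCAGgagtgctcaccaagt
The 34-base exons of Ptbp1 (chr10:79862014-79862047, plus strand) and Ptbp2 (chr3:119724612-119724645, minus strand) are the ones whose skipping shifts the frame, and 26 of 34 positions (76.5%) are identical. The 78-base exon of Ptbp1 (chr10:79860117-79860194) lies between the second and the third RNA-recognition motif.
Ptbp1 34-base exon: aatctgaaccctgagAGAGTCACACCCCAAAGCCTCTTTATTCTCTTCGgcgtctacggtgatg
Ptbp2 34-base exon: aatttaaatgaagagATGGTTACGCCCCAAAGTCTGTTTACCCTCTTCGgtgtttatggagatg
Ptbp1 78-base exon: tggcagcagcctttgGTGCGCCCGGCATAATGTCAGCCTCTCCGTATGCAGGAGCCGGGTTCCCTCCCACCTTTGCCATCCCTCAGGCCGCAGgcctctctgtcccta
The next 5 are short in-frame exons whose inclusion was higher in the KO: both clathrin light chains (Clta, chr4:44031400-44031435, plus strand, and Cltb, chr13:54597026-54597079, minus strand), the catenin Ctnnd1 (chr2:84612532-84612549, minus strand), the lysosomal saposin precursor Psap (chr10:60297537-60297545, plus strand) and the CCAAT-binding subunit Nfya (chr17:48398982-48399065, minus strand).
Clta 36-base exon: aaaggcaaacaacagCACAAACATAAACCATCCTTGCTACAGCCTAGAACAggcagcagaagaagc
Cltb 54-base exon: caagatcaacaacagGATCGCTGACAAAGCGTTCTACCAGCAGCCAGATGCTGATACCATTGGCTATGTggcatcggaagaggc
Ctnnd1 18-base exon: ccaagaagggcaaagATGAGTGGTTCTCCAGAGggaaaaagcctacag
Psap 9-base exon: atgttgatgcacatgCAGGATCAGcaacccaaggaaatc
Nfya 84-base exon: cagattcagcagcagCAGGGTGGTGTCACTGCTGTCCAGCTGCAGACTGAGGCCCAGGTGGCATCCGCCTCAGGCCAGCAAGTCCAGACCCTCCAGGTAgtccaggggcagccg

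The 6 HSC libraries held 15956408 to 19976170 estimated reads, of which mitochondrial ribosomal RNA took 24% to 33.5% and protein-coding genes 56.1% to 63.9%. The library KO 2 stood apart: on the first principal component (35.8% of the variance) it lay at 138 and the other 5 between -39.6 and -16.6, and its correlation with them over genes was 0.856 to 0.874 against 0.909 to 0.927 among the others. Results below are given with the value of each library for this reason. The sort gate showed in the RNA of both genotypes: Kit was 595 to 711 CPM (reads scaled to a common library size by TMM), Slamf1 (CD150) 78.5 to 100.6 CPM and Ly6a (Sca-1) 30.2 to 60.1 CPM. Cd48, which the gate excludes, was low but higher in every KO library, at 0.693, 0 and 0.457 CPM in WT and 3.48, 1.09 and 1.66 CPM in KO. Among markers of other cells Cd3e was at most 0.182 CPM and Klf1 1.83 CPM, and Gzma, Cma1 and Mcpt8 had 0 reads. Others were present: Lyz2 was at 96.1 to 150 CPM, Itga2b at 28.4 to 74 CPM, Pf4 at 29.04, 8.87 and 50.3 CPM in WT and 3.07, 12.8 and 27.5 in KO, and Hbb-bt at 17.9, 21.3 and 23.98 CPM in WT and 14.7, 1.95 and 2.75 in KO.

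The targeted gene was lower in every KO library. Ptbp1 (chr10:79854427-79864771, plus strand) was at 287, 268 and 254 CPM in WT 1 to WT 3 (269.5 ± 16.6, mean ± SD, n = 3) and at 117, 141 and 125 CPM in KO 1 to KO 3 (127 ± 12, n = 3), a log2 fold change of -1.08 (standard error, SE, 0.14; edgeR quasi-likelihood adjusted p = 0.0432). The groups did not overlap. Ptbp1 fell by 1.77 (SE 0.13) in preMegE and by 2.02 (SE 0.13) in preCFU-E on the log2 scale, where 0.0603% and 0.153% of all genes were called. The difference of these effects from that in HSC did not pass the test (edgeR adjusted p = 0.224 and 0.0604).

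The coding Ptbp1 transcripts held few of the reads left in the KO. The coding transcript Ptbp1-202, which skips the 78-base exon, held 1470, 1138 and 982 reads in WT and 0 reads in all 3 KO libraries (edgeR adjusted p over transcripts = 0.0351). The coding transcript Ptbp1-216, which has that exon, held 846, 1449 and 1109 reads in WT against 55, 8 and 33 in KO, without overlap (adjusted p = 0.491). What remained lay mostly on 2 transcripts annotated as retained introns. Ptbp1-205 held 1809, 944 and 1007 reads in WT and 1101, 1243 and 1164 in KO, which overlap, and Ptbp1-213 held 563, 118 and 157 in WT and 1155, 992 and 886 in KO. Salmon divides reads among the transcripts of a gene, so a 0 is an estimate and no fold is given against it.

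The paralogs differed from each other. Ptbp2 (chr3:119718742-119784466, minus strand), the PTB protein best known from neurons, was at 57.4, 78.3 and 81.6 CPM in WT and 120.4, 163 and 166 CPM in KO. Every KO library lay above every WT library. Its log2 fold change of 1.05 (SE 0.19) ranked 10th of 20251 genes and did not pass the test (edgeR adjusted p = 0.466). In the progenitors, which share no library with the HSC samples, Ptbp2 rose from 18.98, 18.9 and 15.4 to 74.8, 89.4 and 84 CPM in preMegE (log2 2.22, SE 0.18, edgeR adjusted p = 3.45e-07) and from 11.5, 10.9 and 7.75 to 129, 142 and 144 CPM in preCFU-E (log2 3.78, SE 0.19, adjusted p = 8.68e-11). On the scale of that fit WT HSC libraries were at 44.1, 60.9 and 62.9 CPM and KO HSC libraries at 92.9, 125 and 128 CPM, so every WT HSC library lay above every WT progenitor library. The HSC effect minus the preCFU-E effect was -2.73 on the log2 scale (SE 0.25, edgeR adjusted p = 6.01e-06), while its difference from preMegE did not pass (adjusted p = 0.121). Ptbp3, the paralog known from blood cells, was at 525, 552 and 537 CPM in WT and 419.7, 476 and 640.3 CPM in KO, and the groups overlapped (log2 -0.07, SE 0.16).

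Inclusion of the frame-shifting exon of Ptbp2 overlapped between the HSC groups. Inclusion is given as percent spliced in (PSI), the share of a site's transcript level (TPM, a length-corrected level) on forms that carry the exon. It was 58.6, 72.8 and 71.8% in WT HSC and 70.2, 69.3 and 84.8% in KO HSC. In WT HSC this value rests mostly on Ptbp2-202, a 465-base form that carries the exon. That form held only 36, 27 and 12 reads in WT HSC and 49, 55 and 55 in KO HSC. With so few reads the overlap cannot tell whether inclusion of this exon changed in HSC. In preMegE inclusion was 68.05, 73.3 and 59.5% in WT and 82.8, 97.1 and 93.6% in KO, without overlap. In preCFU-E it was 74.98, 68.5 and 54.9% in WT and 93.3, 100 and 98.03% in KO. The corresponding 34-base exon of Ptbp1 was at 94.7, 86.5 and 89.9% in WT HSC and 100% in all 3 KO libraries. In the KO this value rests mostly on Ptbp1-205, annotated as a retained intron. That transcript held 25.8, 34.4 and 38.5 of the 28.2, 36 and 40.01 TPM counted for the exon.

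**Figure D1:**
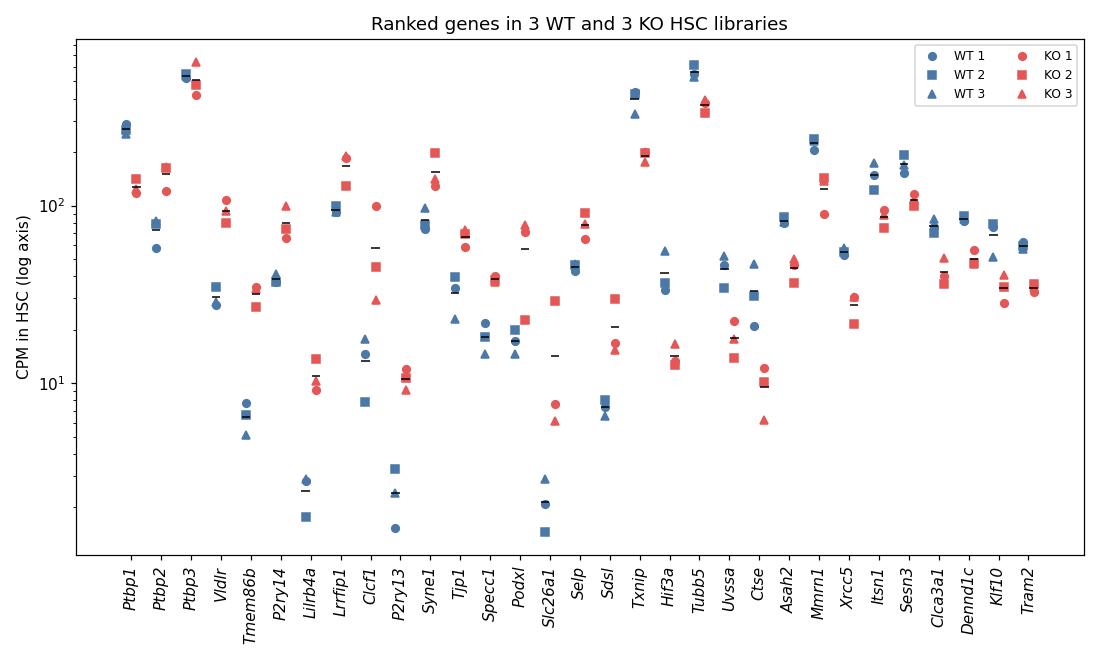
Level of the PTB family and of the 30 ranked genes in each HSC library (y axis, CPM, log scale); blue markers are the 3 WT and red markers the 3 KO libraries, and the dash is the group mean. Ptbp1 is lower and Ptbp2 higher in every KO library, Ptbp3 overlaps, and the ranked genes were chosen to show no overlap, so their separation is part of the rule.

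Across all genes, 5 of 20251 passed the test in HSC (0.0247%; edgeR quasi-likelihood, adjusted p below 0.05), 3 higher (0.0148%) and 2 lower (0.00988%) in the KO, and 1263 had an unadjusted p below 0.05, 634 higher and 629 lower. Besides Ptbp1 these were 2 protein-coding genes and 2 processed pseudogenes. Vldlr (chr19:27216484-27254231, plus strand), a lipoprotein and reelin receptor of the LDL receptor family, rose from 27.7, 35.01 and 28.6 CPM in WT to 107, 79.9 and 93.7 CPM in KO (log2 1.62, SE 0.20, adjusted p = 0.0404). Every KO library lay above every WT library. Tmem86b (chr7:4628040-4631422, minus strand), an enzyme that cleaves lysoplasmalogens, a class of membrane ether lipids, rose from 7.72, 6.62 and 5.10 to 34.8, 26.95 and 34.1 CPM (log2 2.30, SE 0.30, adjusted p = 0.0432). Tmem86b was also higher in the KO progenitors (log2 1.21, adjusted p = 0.037 in preMegE and 1.38, adjusted p = 0.00493 in preCFU-E), whereas Vldlr was at log2 1.16 (adjusted p = 0.0704) in preMegE and -0.62 (adjusted p = 1) in preCFU-E. The pseudogene Gm10163 had 0 reads in all 3 WT libraries and 8.43, 15.3 and 8.36 CPM in the KO, and Gm10240 had 8.06, 5.59 and 12.8 CPM in WT and 0 in the KO. Such copies share reads with their parent genes, and their values are uncertain. DESeq2, which called 90 genes, also called these 5, whereas limma-voom, length-scaled counts and a fit with a replicate block each called 0. The 5 genes were called again without KO 2, and none was called without any one of the other 5 libraries.

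The 15 genes that ranked highest with every KO library above every WT library are given first. Without overlap in this direction lay 1205 genes (5.95%), and in the other 1288 (6.36%); the ranked genes below did not pass the test (edgeR adjusted p from 0.0661 up) unless stated. P2ry14, a receptor for UDP-glucose, was at 37.1, 37.1 and 41.4 CPM in WT and 65.7, 74.2 and 99.7 in KO (log2 1.05, SE 0.20). P2ry13, an ADP receptor encoded beside it (chr3:59207892-59210882 and chr3:59113855-59153618, both on the minus strand), was at 1.53, 3.28 and 2.42 CPM in WT and 12, 10.7 and 9.16 in KO (log2 2.14, SE 0.46). Neither receptor gene passed the test in the progenitors (P2ry14 log2 -0.15 in preMegE and -1.52 in preCFU-E, P2ry13 0.72 and 0.31). Selp, the adhesion receptor P-selectin, was at 42.8, 46.1 and 46.7 CPM in WT and 64.7, 90.9 and 78.98 in KO (log2 0.79, SE 0.19). Podxl, a sialomucin of the cell surface, was at 17.2, 19.8 and 14.5 CPM in WT and 70.7, 22.5 and 77.7 in KO, where KO 2 lay just above the WT libraries and the other 2 far above. Podxl was also higher in the KO of preCFU-E (log2 2.36, edgeR adjusted p = 0.0146) but not in preMegE (log2 -0.06). Lilrb4a, an inhibitory receptor of leukocytes, was at 2.82, 1.76 and 2.88 in WT and 9.21, 13.7 and 10.2 CPM in KO. The cytokine gene Clcf1, of the interleukin-6 family, was at 14.5, 7.84 and 17.6 CPM in WT and at 99.5, 44.8 and 29.2 in KO, a wide spread within the KO.

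Of the others of these 15, 3 encode proteins of the cytoskeleton or of junctions. Syne1 (nesprin-1, which ties the nuclear envelope to actin) was at 74.2, 77.8 and 97.4 CPM in WT and 128, 197 and 141 in KO. Tjp1, the junction scaffold ZO-1, was at 34.5, 39.6 and 22.9 in WT and 58.6, 69.02 and 72.97 in KO. Specc1 was at 21.8, 18.3 and 14.6 in WT and 40.1, 37.9 and 37.3 in KO. For Tjp1 the log2 fold change was 1.05 (SE 0.24) with summed reads and -0.021 with length-scaled counts. Lrrfip1, which is also among the genes with shifted exons below, was at 91.6, 99.5 and 91.4 in WT and 185, 129 and 189.6 CPM in KO. The sulfate transporter gene Slc26a1 was at 2.08, 1.46 and 2.88 CPM in WT and 7.60, 29.1 and 6.12 in KO. The serine dehydratase-like gene Sdsl was at 7.37, 8.02 and 6.53 in WT and 16.9, 29.6 and 15.3 in KO, and KO 2 was the highest library for both.

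The 15 genes that ranked highest with every KO library below every WT library were led, after Ptbp1, by Txnip. Txnip encodes a thioredoxin-interacting protein that restrains glucose uptake and is known from work on HSC quiescence. It was at 434, 427 and 326 CPM in WT and 200.2, 198 and 176 CPM in KO (log2 -1.05, SE 0.15, edgeR adjusted p = 0.0661). In the fit of all 18 libraries, which uses a spread shared by all groups, its difference from both progenitors passed the test. The HSC effect minus the preMegE effect was -1.31 on the log2 scale (SE 0.22, edgeR adjusted p = 0.0213). Minus the preCFU-E effect it was -1.20 (SE 0.22, edgeR adjusted p = 0.0363). Hif3a, a subunit of the hypoxia-inducible factors, was at 33.3, 36.8 and 55.3 CPM in WT and 13.3, 12.6 and 16.6 in KO (log2 -1.56, SE 0.28). Sesn3, a stress-responsive sestrin, was at 152, 191 and 169 in WT and 117, 99.5 and 107 CPM in KO. Klf10, a transcription factor induced by TGF-beta, was at 75.6, 79.01 and 51.3 in WT and 28.4, 34.6 and 40.6 CPM in KO. Uvssa, of transcription-coupled repair, was at 46.01, 34.5 and 51.8 CPM in WT and 22.3, 13.8 and 17.8 in KO. Xrcc5, the Ku80 subunit of end joining, was at 52.7, 54.5 and 57.9 in WT and 30.6, 21.5 and 30.4 in KO. Uvssa was also lower in the KO of preCFU-E (log2 -1.55, edgeR adjusted p = 0.0014).

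Among the rest of the lower genes, Tubb5 (beta-tubulin) was the most abundant, at 554, 622 and 527 CPM in WT and 379.8, 333 and 395 in KO. Mmrn1, a multimerin of platelets and endothelium, was at 206, 237 and 232 in WT and 89.8, 142 and 138 CPM in KO. Ctse (the protease cathepsin E) was at 20.98, 30.9 and 46.98 in WT and 12.2, 10.1 and 6.24 CPM in KO. Asah2, a neutral ceramidase, was at 80.1, 86.4 and 80.6 in WT and 46.5, 36.6 and 50.2 in KO. Itsn1, an endocytic scaffold, was at 149, 122 and 173 in WT and 94.4, 75.02 and 87.97 in KO. Clca3a1 (75.99, 69.6 and 83.9 in WT and 39.9, 36.3 and 50.8 CPM in KO), Dennd1c (81.5, 87.9 and 83.8 in WT and 56.5, 47.7 and 46.7 in KO) and Tram2 (62.5, 59.4 and 56.7 in WT and 32.5, 36.2 and 34.9 in KO) complete the set. Clca3a1 was also lower in the KO of preCFU-E (log2 -1.19, edgeR adjusted p = 0.0459). In the progenitor libraries 11 of the 15 lower genes had the same sign in preMegE and 10 in preCFU-E, and 8 and 6 of the 15 higher genes, against 54.1% and 49.1% of all genes tested.

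Gene lists of HSC biology are described by their counts and medians, beside a median of 0.02 over all genes (log2 fold change) and the shares without overlap of 5.95% (KO above) and 6.36% (KO below). In bulk samples a lower level can come from fewer cells of a type or from less RNA per cell, which cannot be told apart. No member passed the test other than Ptbp1, Vldlr and Tmem86b; members named beyond the 2 most abundant and the top ranked of a list were picked after their values were seen, at an unadjusted p below 0.05.

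The histone genes had a low median, as had the red cell markers below. Of 53 measured genes 51 had a negative log2 fold change, the median was -0.77, and 27 (50.9%) had every KO library below every WT library and none the reverse. Summed over the list the level was 986, 963 and 797 CPM in WT and 589, 556 and 628 CPM in KO. The most abundant member, Hist1h4d, was at 141, 141 and 113 CPM in WT and 88.1, 70.2 and 90.2 in KO (log2 -0.67, SE 0.17). Hist1h2ak was at 113, 111 and 78.3 in WT and 59.6, 68.3 and 66.2 in KO (log2 -0.64, SE 0.19). Hist1h4c, with 8.41, 12.5 and 10.3 CPM in WT and 3.07, 2.69 and 4.24 in KO, and Hist3h2a, with 13.8, 15.7 and 15.4 in WT and 7.24, 5.49 and 4.12 in KO, had larger differences at lower levels (log2 -1.64 and -1.41). The median over the list stayed between -0.84 and -0.68 with any one library left out, and it was -0.15 in preMegE and 0.01 in preCFU-E. Histone genes are near-identical copies, so the reads of single members are uncertain. Genes of the S phase, in which histone messages are made, had a median of -0.03 over 50 genes, with 4 above and 0 below without overlap; it was -0.23 without KO 3 and 0.05 without KO 2. Genes of the G2 and M phases had a median of -0.34 over 57 genes, with 45 negative, and 4 (7.02%) lay below without overlap. The median was -0.18 without KO 2 and -0.57 without KO 3. The list's median against the WT mean was -0.42 in KO 1, -0.61 in KO 2 and 0.06 in KO 3. Mki67, the proliferation marker, illustrates this with 830.1, 779 and 743 CPM in WT and 479, 515 and 1181 in KO. The part of the cell cycle in the histone values was not tested.

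**Figure D2:**
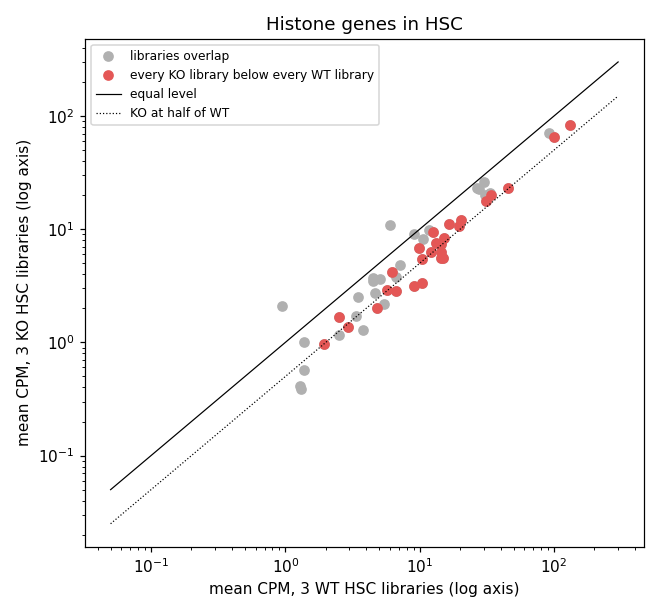
Mean CPM of each of 53 histone genes in the 3 WT (x axis) and 3 KO (y axis) HSC libraries, both log axes; the solid line marks equal levels and the dotted line a halved level, and red points are the 27 genes with every KO library below every WT library. Of the 53 genes 51 have a negative fold change, and the most abundant ones lie between the 2 lines.

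Transcription factors of HSC identity had a median of -0.16 over 41 genes, with 11 (26.8%) below and 0 above without overlap, and it was -0.25 without KO 2. Hlf, a factor that marks HSCs, was at 796, 787 and 802 CPM in WT and 731, 678 and 526 in KO (log2 -0.30, SE 0.14). Mllt3, known to sustain HSCs in culture, was at 296, 246 and 289 in WT and 251, 157 and 172 CPM in KO, with KO 1 within the WT range. Zfp521 was at 51.1, 38.4 and 66.5 in WT and 33.7, 26.2 and 35.9 in KO. Hoxa10 was at 15.4, 10.7 and 14.4 in WT and 8.66, 6.18 and 7.84 in KO. Bcl6 was at 8.91, 6.87 and 9.28 in WT and 4.76, 3.32 and 4.01 in KO. Sox18 was at 4.21, 9.48 and 7.84 in WT and 1.47, 2.00 and 2.46 CPM in KO. These 4 factors did not overlap between groups. Regulators of quiescence and the CDK inhibitors had a median of -0.15 over 23 genes, with 7 (30.4%) below without overlap and 1 above. The median was -0.09 without KO 2 and -0.25 without KO 3. Besides Txnip, the CDK inhibitor Cdkn1b was at 69.5, 71.2 and 59.01 CPM in WT and 38.1, 48.6 and 38.2 in KO. Ccnd1, cyclin D1, was at 59.3, 90.5 and 44.96 in WT and 37.8, 22.3 and 31.1 in KO. The kinase Cdk6, which drives exit from quiescence, was above WT in every KO library, at 1424, 1267 and 1453 in WT and 1558, 1769 and 2982 CPM in KO. KO 3 lay far above the other 2 KO libraries for Cdk6. Chromatin regulators had a median of -0.02 over 37 genes (-0.06 without KO 3, 0.06 without KO 1). Without overlap 6 (16.2%) lay below and 2 (5.41%) above. Among those below were the polycomb genes Ezh1 (55.5, 47.7 and 59.5 in WT and 39.1, 26.3 and 31.4 CPM in KO) and Rnf2 (50.2, 51.4 and 51.6 in WT and 31.5, 37.5 and 43.3 in KO).

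Surface proteins of HSCs went both ways, with 6 of 41 (14.6%) above and 2 below without overlap and a median of 0.00. Vwf, the clotting factor that marks platelet-biased HSCs, was at 125, 109 and 119 CPM in WT and 167, 142 and 183 in KO (log2 0.48, SE 0.15), beside Selp. Abcg2, the transporter behind the side-population phenotype, was at 87.5, 95.1 and 102 CPM in WT and 62.99, 62.8 and 64.2 in KO (log2 -0.58, SE 0.16). Procr (EPCR) was at 53.2, 55.9 and 38.2 CPM in WT and 41.7, 16.7 and 10.6 in KO, with KO 1 within the WT range. Flt3, which appears as cells leave the stem cell state, was at 3.96, 5.90 and 2.55 in WT and 14.7, 6.18 and 7.21 CPM in KO.

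Markers of red cells had a median of -0.72 over 29 genes, with 10 (34.5%) below and 0 above without overlap, and their summed level was 904 to 1083 CPM in WT and 623 to 807 CPM in KO. Of the 29 genes 23 had a negative and 6 a positive log2 fold change, and the red cell markers named here are all among the lower. The most abundant of those named was Car2 (carbonic anhydrase 2, also made by HSCs), at 479.5, 409 and 449.8 CPM in WT and 230.0, 261 and 362 in KO (log2 -0.65, SE 0.17). The blood-group protein gene Xk was at 64.1, 71.6 and 67.8 in WT and 26.3, 49.4 and 44.9 CPM in KO. Markers of maturing red cells were low and uneven: Slc4a1 (band 3) was at 1.88, 6.32 and 21.8 CPM in WT and 1.15, 1.49 and 1.03 in KO, with WT 3 far above the rest. The globin gene Hbb-bt was at 17.9, 21.3 and 23.98 in WT and 14.7, 1.95 and 2.75 in KO. The list's median against the WT mean was 0.34 in WT 3 and -1.19 in KO 2, and it moved to -0.58 without WT 3 and -0.48 without KO 2. The megakaryocyte list had a median of -0.03 over 29 genes, with 3 above and 1 below without overlap, and it ranged from -0.05 without KO 3 to 0.16 without KO 1. Cxcl12, a chemokine of stromal cells, was at 4.30, 2.07 and 12.02 CPM in WT and 0.825, 0.172 and 0.114 in KO. In the list of 15 endothelial and stromal genes 2 lay below and 0 above without overlap, and the sum was 304 to 364 CPM in WT and 273 to 302 CPM in KO. The share of other cells in these differences was not tested.

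The ribosome is named in the series' title. Messages of the large subunit's proteins had a median of 0.11 over 49 genes, with 9 (18.4%) above and 0 below without overlap, and those of the small subunit 0.06 over 34, with 3 above and 0 below. Without KO 1 these medians were 0.06 and 0.02. Rpl13 was at 239.7, 224 and 238 CPM in WT and 341, 301 and 343 in KO (log2 0.49, SE 0.12). Of the most abundant, Rpl4 was at 923, 1088 and 1050.5 in WT and 1163, 1068 and 1051 CPM in KO. Rps6 was at 569, 602 and 531 in WT and 639, 508 and 617 in KO, both overlapping. Genes of ribosome assembly had a median of 0.13 over 70 genes, which was -0.02 without KO 3 and 0.22 without KO 2, and 3 lay above and 1 below without overlap. Gnl3 (nucleostemin) was at 59.7, 67.9 and 68.5 CPM in WT and 95.1, 87.96 and 102 in KO. Ncl (nucleolin) was at 885, 1045 and 903 in WT and 1065, 785 and 1316 in KO. Ribosomal protein genes share reads with many processed pseudogenes.

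**Figure D3:**
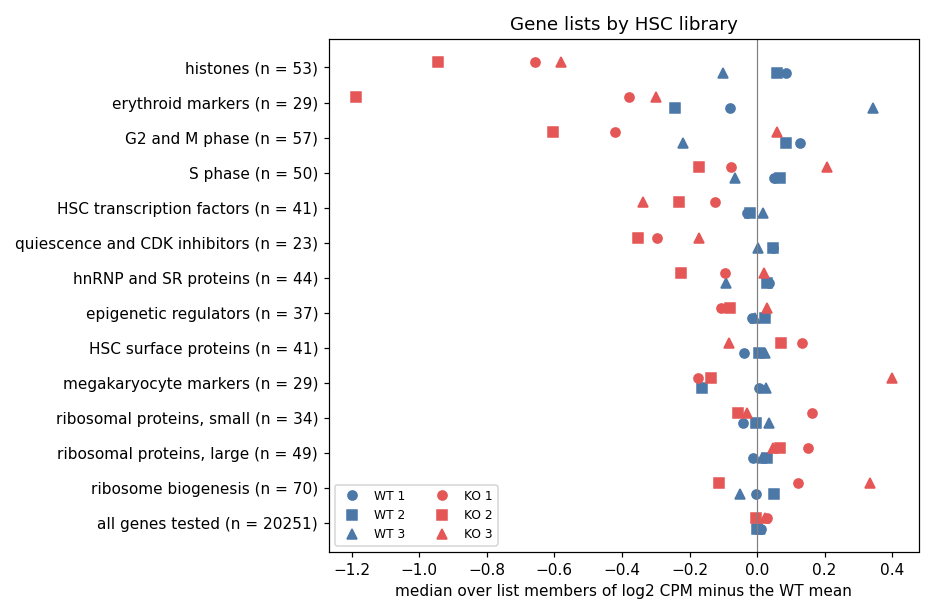
Median over the measured members of 13 lists, and over all 20251 genes, of log2 CPM minus the mean of the 3 WT libraries (x axis), for each WT (blue) and KO (red) library. For histones all 3 KO libraries lie below all 3 WT libraries, at -0.66, -0.94 and -0.58, while the G2 and M phase median of KO 3 lies at 0.06 and KO 2 is lowest for the erythroid markers at -1.19.

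At the level of single transcripts, 2 of 44600 passed the test (0.00448%; edgeR), and both were lower in the KO. They were Ptbp1-202, described above, and Wnk1-224. Wnk1 encodes a kinase that senses chloride and osmotic stress, and Wnk1-224, a coding form of 8163 bases, held 2949, 2474 and 2858 reads in WT and 0 in all 3 KO libraries (adjusted p = 0.0237). Without overlap lay 5.61% of transcripts above and 5.97% below. The 5 transcripts of smallest p in each direction are named, and none of the other 8 passed. Tpm3-202, a coding form of another tropomyosin gene, was at 2.61, 2.50 and 1.49 TPM in WT and 16.3, 14.01 and 21.9 TPM in KO (log2 2.83, SE 0.36, edgeR adjusted p = 0.491). Mmrn1-201 was at 33.5, 27.6 and 25.1 and 12.5, 9.78 and 11.2 TPM (log2 -1.50, SE 0.18). The other 6 were listed at exactly 0 in one group: Celf1-208, Shank3-201, Hnrnpd-201 and Mpzl1-201 in WT, Sptan1-204 and Col4a3bp-203 in KO. Celf1 and Hnrnpd themselves encode RNA-binding proteins, and Hnrnpd-201 was at 5.30, 7.19 and 10.1 TPM in the KO libraries.

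The shares of transcripts within a gene changed in 37 of 11442 genes (0.323%; edgeR diffSpliceDGE, Simes p per gene, adjusted p below 0.05). Of these, 8 were called with every library left out in turn: Birc2, Col4a3bp, Phospho2, Ptbp1, Rtn4, Shank3, Wnk1 and Zcchc7. In Wnk1 (adjusted p = 6.27e-12) the share of Wnk1-224 in the gene's TPM was 12.3, 14.1 and 15.1% in WT and 0% in all 3 KO libraries. The share of the longer coding form Wnk1-202 was 9.49, 7.57 and 11.8% in WT and 22.4, 26.7 and 29.4% in KO. In the progenitors Wnk1-224 was at 14.1, 14.6 and 12.4% in WT and 2.57, 3.64 and 2.69% in KO of preMegE and at 15.7, 14.5 and 15.4% in WT and 1.67, 0 and 1.13% in KO of preCFU-E. In Rtn4 (adjusted p = 0.00363), which encodes the reticulon that shapes the endoplasmic reticulum and is known as Nogo, the form Rtn4-204, which lacks the 2361-base exon, was at 66.6, 29.04 and 12.5% in WT and 0% in the KO. The forms with that exon, Rtn4-203 at 16.1, 26.5 and 22.4% in WT and 82.1, 62.2 and 44.2% in KO and Rtn4-205 at 2.02, 0.792 and 1.39% in WT and 7.91, 6.55 and 39.04% in KO, were higher in every KO library. The ceramide transfer protein gene Col4a3bp (adjusted p = 0.000339) had Col4a3bp-203 at 14, 18.2 and 9.70% in WT and 0% in KO, and at most 3.55% in the KO progenitors.

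Other calls had different shares in the WT progenitor libraries. Birc2-202, of an apoptosis inhibitor gene, was at 0% in WT and 28.2, 21.9 and 9.04% in KO HSC, but at 22.9, 31.9 and 41.2% in WT and 8.24, 27.4 and 46.2% in KO preMegE. Shank3-201 was at 0% in WT and 16.3, 70.4 and 32.6% in KO HSC, and at 43.9, 37.4 and 42.7% in WT and 16.2, 41.1 and 44.1% in KO of preCFU-E. Phospho2-202 was at 56.4, 45.5 and 73.8% in WT and 0% in KO HSC, and at 43.6, 43.2 and 61.8% in WT and 45.4, 31.1 and 45.4% in KO of preCFU-E. Among the genes called with all libraries present, Capzb-203, a form of the actin capping protein's beta subunit, was at 0% in WT and 21.1, 0.911 and 9.69% in KO HSC, and it was higher in every KO library of preMegE (0.919, 0.659 and 0.63% in WT and 7.71, 4.30 and 5.82% in KO) and preCFU-E (0.952, 1.39 and 0.856% in WT and 13.5, 12.7 and 12.1% in KO). Lamp2-203, of the lysosomal membrane protein gene Lamp2, was at 1.02, 0.25 and 0.111% in WT and 12.98, 32.6 and 5.38% in KO HSC (adjusted p = 0.0143), and also higher in every KO progenitor library.

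For single cassette exons, internal exons that some transcripts carry and others skip, none of 9126 passed the test (limma on the logit scale; smallest adjusted p = 0.0664; 400 at an unadjusted p below 0.05). By size and agreement of libraries, 375 exons (4.11%) were higher and 301 (3.3%) lower in the KO by at least 10 percentage points with no overlap. The 12 of these with the smallest p, in Plxna3, Gdap2, Tulp4, Mpzl1, Rec114, Pex2, Kantr, Ube3a, Ctsa, Wipf1, Lyar and Cltb, mostly stood at exactly 0% or 100% in one group. The level filter takes the mean over the 6 libraries, so an exon can pass through one group and hold little signal in the other. The Tulp4 exon had 0.664, 0.638 and 0.0756 TPM in WT and 8.37, 6.41 and 16.1 TPM in KO. Plxna3 had 0.507 TPM in KO 3 and Gdap2 0.755 TPM in KO 1. The 12 exons had the same sign in preMegE for 5 of 12 and in preCFU-E for 3 of 12, against 49.4% and 48.0% of all exons tested. A difference of exactly 0 is not counted as the same sign, as for Rec114 in both progenitors and Wipf1 in preCFU-E. Cltb is one of them: the exon of 54 bases was at 0% in all 3 WT and at 32.1, 20.4 and 45.2% in the KO HSC libraries, but at 19.5, 31.8 and 0% in WT and 0% in all 3 KO libraries of preMegE.

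The same exons were read in the progenitor libraries, which the rule did not use; an exon is said to shift where it meets the 10-point rule without overlap. Of the 676 exons, 673 had values in preMegE and 68 (10.1%) shifted there in the same direction by at least 10 points without overlap, against 16 (2.38%) in the opposite direction; over all tested exons the shares were 3.40% and 2.13%. In preCFU-E 80 of 656 (12.2%) shifted the same way and 8 (1.22%) the opposite way, against 3.98% and 1.59%. Seen from the progenitors, these are 13.6% of the 501 exons that shifted in preMegE and 16.1% of the 497 in preCFU-E. In all 3 populations 56 exons of 37 genes shifted the same way, 43 higher and 13 lower, and 1 exon, in Rsrp1, was opposite in both progenitors. They make up 8.28% of the HSC exons and 35.9% of the 156 exons that shifted the same way in both progenitors. This set was formed after the data were seen. Of the 56 exons 40 (71.4%) have a length that is a multiple of 3 bases, against 43.5% of all tested, and 8 (14.3%) are at most 27 bases long, against 3.42%. These exons are not separate events. Lrrfip1 gives 5 of them and Macf1 4, all of a length that is a multiple of 3, and the 4 of Macf1 have identical values. Exons that replace each other, as in Tpm1 and Pkm, are also counted singly.

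**Figure D4:**
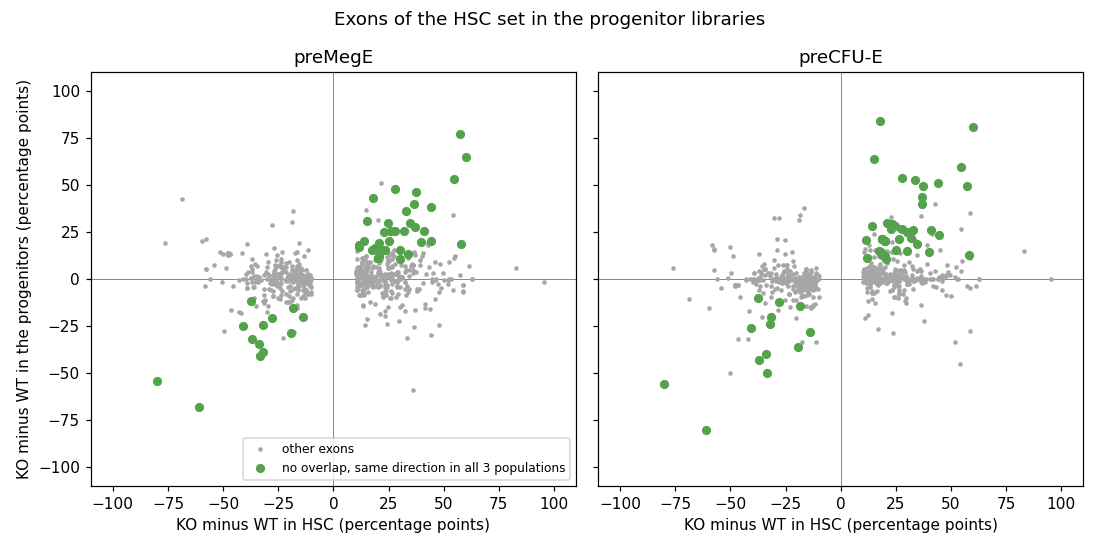
KO minus WT difference in PSI (percentage points) of the exons without overlap in HSC (x axes) against the same exons in preMegE and preCFU-E (y axes); each point is 1 exon, and green points are the 56 exons that shift the same way without overlap in all 3 populations. Most grey points lie near 0 on the y axes, and the x axis is empty between -10 and 10 by the rule.

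In the Tpm1 pair shown above the 2 exons moved in opposite directions. The upstream exon was at 61, 75.1 and 66.6% in WT and 3.90, 9.17 and 6.86% in KO HSC. The downstream exon was at 26.1, 17.2 and 25.4% in WT and 77.8, 87.8 and 83% in KO. In preMegE the upstream exon was at 78.1, 77.7 and 78.8% in WT and 11.6, 10.9 and 7.61% in KO. In preCFU-E it was at 85.8, 83.7 and 85.9% in WT and 6.15, 3.72 and 4.14% in KO. Every WT HSC library lay below every WT progenitor library for this exon. The PKM1 exon of Pkm was at 17, 21.3 and 23.1% in WT and 42.02, 36.2 and 38.1% in KO HSC, at 10.2, 8.40 and 7.88% in WT and 18.4, 26.9 and 28.04% in KO of preMegE, and at 9.29, 12.3 and 3.96% in WT and 26.5, 16.03 and 26.5% in KO of preCFU-E. The PKM2 exon lay above 50% in every KO library. In Ptbp1 itself the 78-base exon was at 59.7, 56.1 and 63.2% in WT and 95, 95.9 and 98.2% in KO HSC, where Ptbp1-205 held 25.8, 34.4 and 38.5 of the 28.2, 36 and 40.01 TPM counted.

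Several short exons of the shared set were higher in the KO of all 3 populations, which the set's rule fixes. The Cltb exon above and the Clta exon below were not in the set. The 9-base exon of Psap, which encodes the precursor of the saposins, was at 18.4, 10.7 and 0% in WT and 47.8, 55.98 and 36.98% in KO HSC, and at 53.5, 46.7 and 51.1% and 45.4, 59.3 and 50.97% in the KO progenitors. The 18-base exon of Ctnnd1, a catenin of cell junctions, was at 8.86, 9.92 and 3.24% in WT and 48.7, 27.3 and 47.6% in KO. The 21-base exon of Tmem184b was at 0, 0 and 2.43% in WT and 58.01, 75.8 and 42.6% in KO. Mars, the methionyl-tRNA synthetase gene, had a 24-base exon at 0, 13.9 and 22.2% in WT and 50.2, 31.7 and 37.8% in KO. Anxa6, an annexin gene, had an 18-base exon at 80.4, 43.7 and 34.7% in WT and 100, 96.04 and 95.7% in KO. The 36-base exon of Clta was at 0.197, 1.74 and 2.43% in WT and 16.8, 16.95 and 9.78% in KO HSC, and at 7.06% to 11.5% in the KO of preMegE. Its shift was 7.76 points in preMegE and 6.65 points in preCFU-E, both under the 10 points of the rule. A 9-base exon of the kinase gene Map4k4 was at 13.6, 11.7 and 8.63% in WT and 22.6, 13.7 and 32.9% in KO, where the groups nearly touch.

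Exons of regulators of transcription and of the cytoskeleton were also in the shared set. The 84-base exon of Nfya, which separates the long from the short form of this CCAAT-binding subunit, was at 59.7, 60.1 and 36.7% in WT and 85.96, 89.1 and 79.95% in KO HSC, and at 23.7, 26.5 and 26.3% in WT and 57.1, 57.8 and 68.99% in KO of preMegE. A 42-base exon of Dpf2, a BAF complex subunit gene, was at 18.8, 16.9 and 29.8% in WT and 55.6, 62.4 and 38.2% in KO. A 113-base exon of Pbrm1, of the PBAF complex, was at 9.79, 7.57 and 13.04% in WT and 45.1, 76.95 and 27.96% in KO. Pdlim7, an actin-associated LIM protein gene, had a 119-base exon at 100, 100 and 74.2% in WT against 12.7, 2.42 and 18.9% in KO and a 17-base exon (0% in all 3 WT libraries against 82.9, 51.4 and 29.8%). An annexin exon of 66 bases in Anxa7 was at 0% in all 3 WT and at 17.2, 9.05 and 19.1% in KO HSC, and at 69.4, 62.4 and 63.7% in KO preCFU-E. Lower in the KO were an 84-base exon of Ktn1, the kinectin gene (74.3, 68.8 and 70.6% in WT and 39.7, 31.9 and 40.97% in KO), and a 105-base exon of Immt, a mitochondrial membrane organizer (93.3, 100 and 97.2% in WT and 57.1, 85.6 and 47.3% in KO). Among regulators of RNA, Rnps1 had a 181-base exon at 52.8, 61.9 and 72.7% in WT and 85.4, 92.9 and 87.6% in KO. Hnrnpa2b1 had a 136-base exon at 67.2, 57.6 and 50.1% in WT and 78.4, 80.1 and 78.9% in KO.

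**Figure D5:**
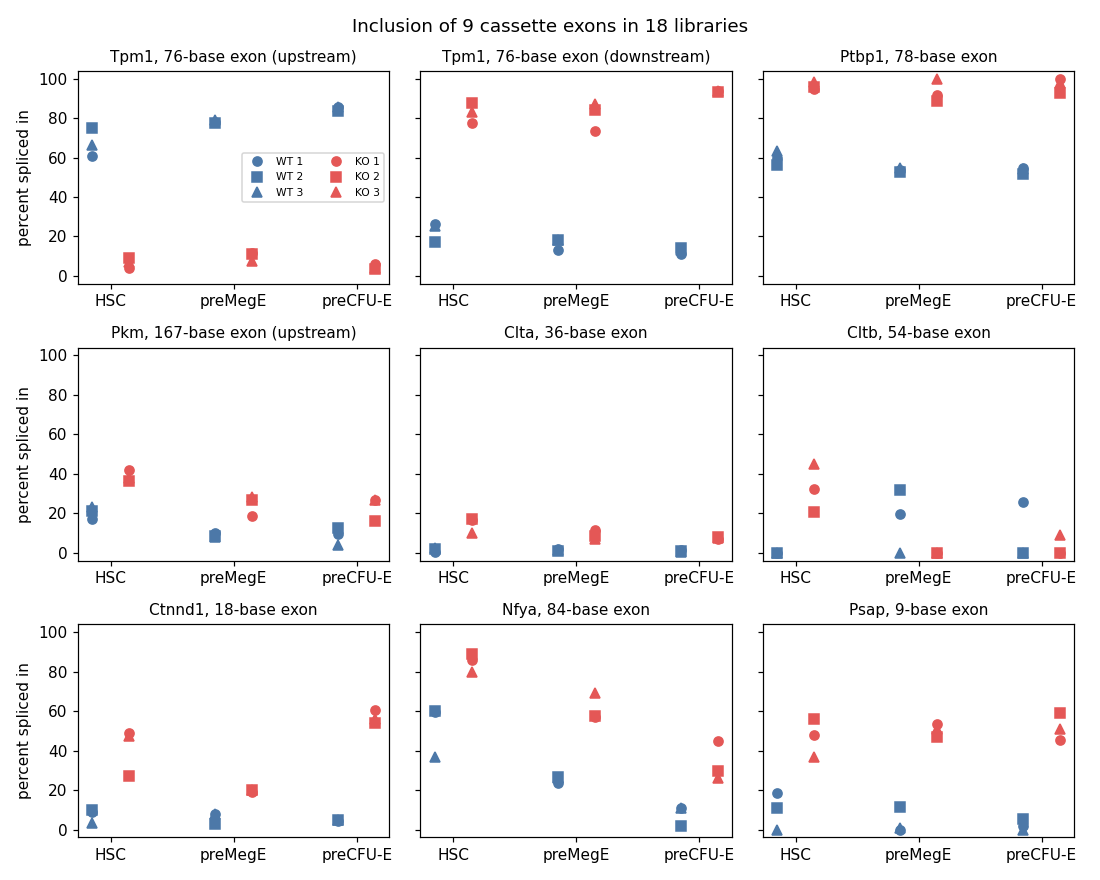
PSI (y axis, percent) of 9 cassette exons in the WT (blue) and KO (red) libraries of HSC, preMegE and preCFU-E (x axis). The 2 Tpm1 exons move in opposite directions in all 3 populations, the Pkm, Clta, Ctnnd1, Nfya and Psap exons are higher in every KO library, and the Cltb exon is at 0% in WT HSC but not in every WT progenitor library.

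Where the effect of the KO in HSC was tested against that in the progenitors, in a fit of all 18 libraries, it differed for 7 of 21565 genes against preMegE (0.0325%) and for 11 against preCFU-E (0.051%; edgeR interaction, adjusted p below 0.05). This fit uses a spread shared by all groups. The progenitors vary less, so it may understate the spread of HSC, and these p-values may be too small. For the HSC effect alone this fit called 182 genes, against 5 in the fit of the 6 HSC libraries. Besides Txnip, Sdsl differed from both: it was higher in KO HSC (log2 1.49 in this fit) and at -0.63 in preMegE and -0.88 in preCFU-E. Hps1, of a complex that builds lysosome-related organelles, was at 13.4, 13.8 and 19.5 CPM in WT and 32.7, 39.4 and 24.4 CPM in KO HSC, but at 15.9, 14.3 and 12.5 and 7.02, 5.46 and 6.51 CPM in preCFU-E. Cst3 (the protease inhibitor cystatin C) was at 29.9, 34.3 and 33.4 CPM in WT and 20.7, 17.9 and 17.4 in KO HSC and at 41.3, 47.5 and 40.4 and 54.3, 54.2 and 55.2 in preCFU-E. The HSC libraries of both genotypes also differ from the progenitor libraries in sex: Xist was at 9121 to 10510 CPM in HSC and at most 1.14 CPM in the progenitors, so for differences between populations, cell type and sex cannot be told apart, while WT and KO match within each population.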

How the data were processed

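Total RNA of sorted cells was amplified with the NuGEN Ovation RNA-Seq V2 kit, per the labels' protocols. The authors quantified transcripts with Salmon 0.12.0 against mm10 (GRCm38.p6), per the submitters' processing notes; the deposited values are estimated counts per transcript, which divide reads among transcripts, and TPM. Strand was not stated. Here estimated counts were rounded after summing per gene with GENCODE M21 names (136176 of 136288 transcripts matched). The 6 HSC libraries were fitted alone with edgeR 4.0.16 (R 4.3.3; TMM, filterByExpr, robust quasi-likelihood test, 4 residual degrees of freedom), with Benjamini-Hochberg adjustment over all features and a threshold of 0.05; transcript usage was tested with diffSpliceDGE and cassette exons with limma 3.58.1 on logit PSI (offset 0.01, at least 5 TPM). The limit of 5 TPM applies to the mean over the 6 HSC libraries. Differences from the progenitors came from an 18-library edgeR fit with a spread shared by all groups. The members and gene lists were chosen with earlier results of these data known. Named genes are the 15 protein-coding or lincRNA genes of smallest p in each direction whose groups do not overlap and whose mean level is 2 or more on the log2 CPM scale. In each list the 2 most abundant members and those without overlap among the 200 smallest p are named. The code was tested on simulated data. Alternatives were DESeq2 1.42.0, limma-voom, other filters and scalings, length-scaled counts, a replicate block and each library left out. The p-values measure the spread between these libraries, and with 3 against 3 an exact permutation test cannot go below 0.1. Some members of the lists are not reported here.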

Additional observations from a re-analysis of the deposited data

Results flagged for a closer look

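The effect of the KO in HSC differed from that in preMegE for 7 genes and from that in preCFU-E for 11, by the edgeR interaction test over 18 libraries. That test uses a spread shared by all groups, so its p-values may be too small for HSC. For the protein-coding genes the HSC effect minus the preMegE effect, on the log2 scale, was 2.28 for Igsf3, -1.31 for Txnip and 2.11 for Sdsl. Against preCFU-E the difference was -2.73 for Ptbp2, -1.20 for Txnip, 2.37 for Sdsl, 2.22 for Hps1, -2.72 for Gabbr1, -1.14 for Cst3 and -5.18 for Add2. Add2 had at most 0.378 CPM in any HSC library and 0 in KO HSC, so its fitted value depends on the prior count. Cell type and sex cannot be told apart in these differences.

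The others are 4 processed pseudogenes, Gm10163, Gm15429, Gm5616 and Rps23-ps1. All 4 had 0 CPM in the 3 WT HSC libraries, so the fitted differences depend on the prior count and are no measure of size. Against preMegE the difference was 9.64 for Rps23-ps1, 7.79 for Gm15429, 10.39 for Gm10163 and 7.48 for Gm5616. Against preCFU-E it was 9.76 for Rps23-ps1, 7.61 for Gm15429, 10.77 for Gm10163 and 7.27 for Gm5616.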

How the results depend on the processing

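The count of 5 genes called in HSC became 90 with DESeq2, 182 in a fit of all 18 libraries, and 0 with limma-voom, with length-scaled counts and with a replicate block; at an unadjusted p below 0.05 these last 3 had 1199, 1253 and 1003 genes. It ranged from 0 to 6 with one library left out, with 6 without KO 2 and 0 without each of the others. The 2 transcripts became 0 with the block and 0 to 3 with a library left out. The 37 genes of changed usage became 21 at a minimum share of 10% and 11 with the replicate block, of which 10 are among the 37. The exon count of 0 became 3 with a logit offset of 0.05. The 7 genes that differed from preMegE became 3 with limma-voom quality weights, of which 1 is among the 7. They became 5 with the replicate block, of which 2 are among the 7, and 4 to 48 with a library left out. The 11 that differed from preCFU-E became 8 to 47. Of the 11, 5 were called again with quality weights and 4 with the block. Same-numbered WT and KO libraries had deviations correlated at -0.0074 to -0.0010, and differently numbered ones at -0.0144 to 0.0142. Whether the numbers pair the samples cannot be told from these values, since a pairing need not show in a correlation over all genes. Signs reversed with length-scaled counts, where the Tjp1 log2 fold change was -0.021, the Ccnd2 log2 fold change 0.18 and the Myc log2 fold change -0.00038, and for the mt-Co1 log2 fold change, from -0.074 without KO 2 to 0.47 without KO 1. Besides these, of 121 named genes 48 had a fold change below 1 SE, and 37 of those changed sign in at least 1 of 16 alternatives. The causes were not tested.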
